A study of Mus musculus with 16 samples.

Results

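The question was whether dextran sulfate sodium (DSS) moved the stool bacteria of Msc knock-out (KO) mice in another way than those of wild-type (WT) mice. It was addressed with a difference of differences, the change from healthy to DSS in KO mice minus the same change in WT mice, called the interaction here. All 16 stool libraries entered it, 4 from each of 4 groups: WT healthy and KO healthy at time point 0, and WT and KO with DSS-induced colitis at time point 1. An interaction above 0 means that a taxon was higher after DSS in KO mice than the WT change would give, and one below 0 that it was lower. The sources used here give no strain, age, sex, cage or DSS dose for any group, and no number of mice behind the libraries.

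The Msc gene encodes musculin, a transcription factor of the basic helix-loop-helix class that is expressed in some T cells. DSS is a polymer given to mice to damage the lining of the colon, and the colitis that follows is known to be accompanied by a loss of strict anaerobes and a gain of Enterobacteriaceae. The 16S rRNA gene is carried by all bacteria, and its variable regions serve as a tag of the organism. Sequencing regions V3 and V4 gives shares of reads, not cell numbers, so a taxon can gain share because others lost it. An amplicon sequence variant (ASV) is 1 exact sequence, and ASVs were numbered here by their total reads.

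The libraries held 49253 to 70577 reads and 1330 ASVs with 340 genus labels. WT DSS replicate 1 stood apart: it held 844 ASVs against 172 to 280 in the others, and 711 of them, with 17.1% of its reads, occurred nowhere else. Of its reads, 11.6% belonged to 10 phyla typical of soil, picked after the values had been seen, which had no read in the other 15 libraries. Reads of mitochondria or chloroplasts numbered at most 35 in a library. Since all healthy libraries are of time point 0 and all DSS libraries of time point 1, the effect of DSS and that of time cannot be told apart, nor can genotype and cage. The knock-out itself cannot be checked in bacterial reads. The labels do not say whether the same replicate number stands for the same animal, so p-values measure the spread between these libraries only. Groups were of 4 libraries throughout (n = 4), and errors of shares are SD.

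Communities were compared first as wholes, with the Bray-Curtis distance between ASV shares, which is 0 for identical libraries and 1 for libraries with nothing in common. The mean distance from KO to WT was 0.434 in healthy mice and 0.416 under DSS, a change of -0.0181 (two-sided exact permutation p = 0.162, adjusted p = 0.162 over 3 distance results). Neither convergence nor divergence passed the threshold. The sign turned when KO healthy replicate 0 (0.0038) or KO DSS replicate 0 (6.2e-05) was left out. With Jaccard distances, which use presence alone, the genotypes lay farther apart under DSS, by 0.151 (exact permutation p = 0.918). The mean over all relabellings of genotype within conditions was 0.150, so relabelled libraries gave the same rise. No direction can thus be given.

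The step from healthy to DSS measured 0.580 in KO mice and 0.467 in WT mice. The difference of 0.113 did not pass (two-sided exact permutation p = 0.127, adjusted p = 0.162). With Jaccard distances it was -0.0152. Once the ASVs of 1 library were left out as well, which was chosen after the data had been seen, the KO step was longer by 0.0461 with Jaccard distances (exact permutation p = 0.029) and by 7.30 with Aitchison distances, which use log ratios (exact permutation p = 0.00286). With Bray-Curtis distances the same filter gave 0.123, which did not pass (exact permutation p = 0.0935). The p-values with this filter were not adjusted. It removes mostly ASVs of WT DSS replicate 1.

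The part of the distances that belonged to the interaction did pass. It accounted for 12.1% of the variation in distances, beside 40.9% for condition and 17.7% for genotype (one-sided exact permutation p = 0.00571, adjusted p = 0.0171, 4900 relabellings of genotype within conditions). It passed under each distance, rank and left-out library tried, with values of 9.62% to 13.2%. The relabelling also removes a genotype difference common to both conditions. The null of this test is thus no genotype difference in either condition, which is stricter than the lack of an interaction, so a low p is not a test of the interaction alone. The mean steps of ASV shares in WT and KO mice had a cosine of 0.798, where 1 is the same direction, and those of centred log ratios one of 0.344.

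KO mice with DSS lay closer to healthy WT mice than to healthy KO mice. For the 4 KO DSS libraries the mean distance to WT healthy libraries was 0.455, 0.462, 0.389 and 0.403, and to KO healthy libraries 0.619, 0.567, 0.555 and 0.578. All 4 were nearer to the other genotype's healthy state than to their own. WT DSS libraries went the other way, with 0.437, 0.483, 0.466 and 0.480 to WT healthy and 0.612, 0.656, 0.653 and 0.665 to KO healthy libraries. The largest distance between any 2 groups was the 0.647 from KO healthy to WT DSS.

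**Figure D1:**
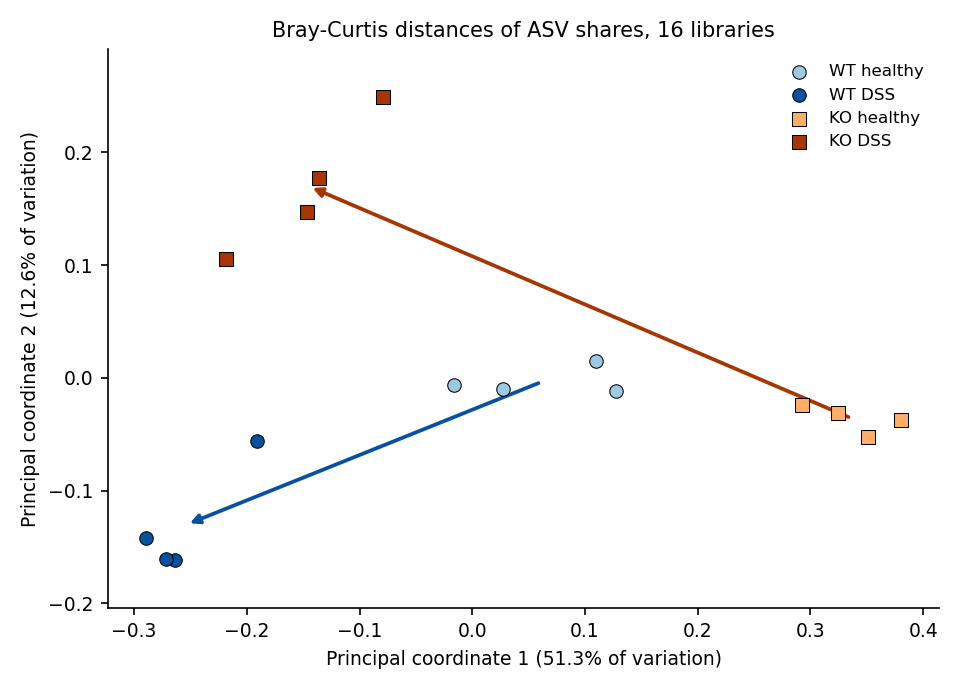
Principal coordinates of all 16 libraries from Bray-Curtis distances of ASV shares (axes in Bray-Curtis units, 51.3% and 12.6% of variation). Points are libraries, arrows run from the healthy to the DSS mean of each genotype, and the KO arrow passes above the WT healthy libraries to end apart from WT DSS.

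The distance between genotypes was then split by family, as a description with no test. Lactobacillaceae, lactic acid bacteria, gave 0.0706 of the distance in healthy mice and 0.0111 under DSS. Muribaculaceae, the commonest Bacteroidales family of the mouse gut, went from 0.0655 to 0.0291, and Erysipelotrichaceae from 0.0217 to 0.0055. These 3 families separated the genotypes less under DSS. Oscillospiraceae went from 0.0148 to 0.0327, Ruminococcaceae from 0.0175 to 0.0325, Enterobacteriaceae from 0.00056 to 0.0165 and the Eubacterium coprostanoligenes group from 0.0009 to 0.0103. Lachnospiraceae gave the most in both states, 0.103 and 0.111.

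**Figure D2:**
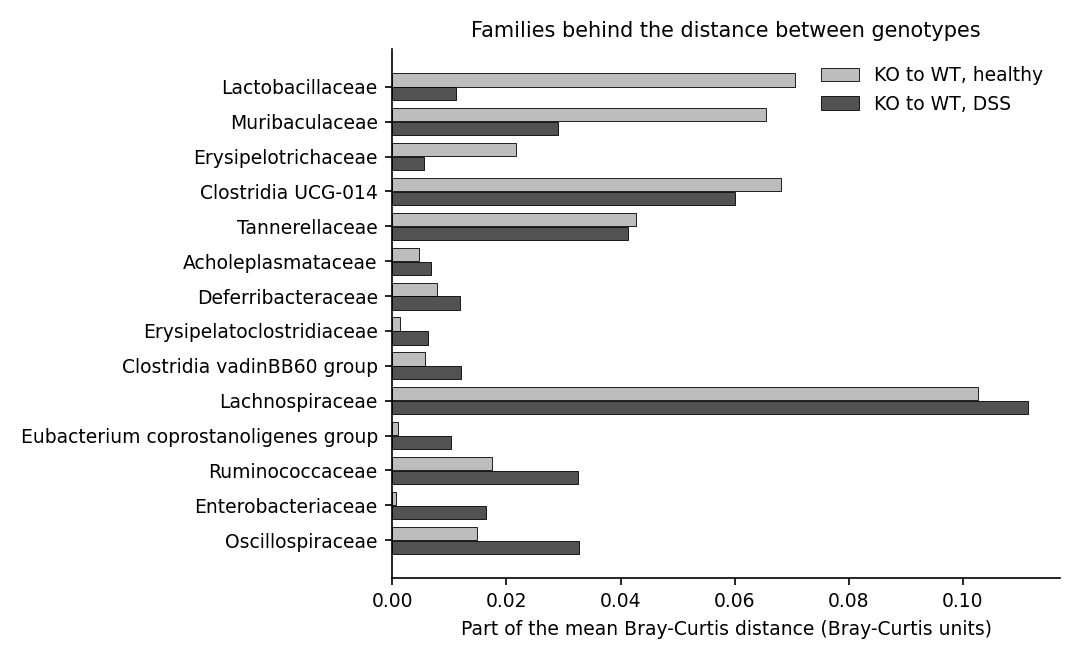
Part of the mean Bray-Curtis distance from KO to WT that each family contributed (Bray-Curtis units), in healthy mice and under DSS, for families with a part of at least 0.005. Families are ordered by the change, from Lactobacillaceae (0.0706 to 0.0111) to Oscillospiraceae (0.0148 to 0.0327).

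The genus labels Ruminococcus, unclassified Oscillospiraceae and Monoglobus changed differently from healthy to DSS in KO and WT mice. All 3 were higher under DSS in KO mice than the WT change would give. They were 4.55% of the 66 genera tested with edgeR's quasi-likelihood test (Benjamini-Hochberg adjusted p under 0.05), while 12 genera had an unadjusted p under 0.05. Without KO healthy replicate 0 the count was 5, and without KO healthy replicate 1 or 3 only Ruminococcus passed. On log shares, limma called 9 genera (13.6%), 8 above 0 and 1 below, among them these 3. Of the 9, 2 had reached the filter of 5 reads in 4 libraries in a single group alone, namely Anaerostipes and Parvibacter. The Eubacterium fissicatena group, also among the 9, reached it through the 4 KO DSS libraries, with few reads in 1 WT DSS library. These genera were bound to differ on this scale. Calls below 0 depended on the scale, since TMMwsp factors gave 3 above and 3 below, and centred log ratios 5 above and 3 below. The median interaction over all 66 genera was 0.76 with TMM factors and 0.0065 with TMMwsp factors, so values should be read against that shift.

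Ruminococcus, anaerobes that degrade plant fibre, crossed over. Its share was 2.78%, 2.08%, 0.923% and 0.646% in the healthy WT libraries, and no healthy KO library had a read. Under DSS it was 0.0182%, 0.186%, 0.330% and 0.390% in WT and 1.76%, 1.58%, 2.64% and 3.28% in KO libraries. The 2 genotypes did not overlap in either state, and their order was the reverse under DSS. It rose in KO mice, at least 425-fold against the 3 reads per library that a count of 0 allows, while in WT mice the mean was 6.96-fold lower (edgeR adjusted p = 0.0891). The log2 interaction was 15.95 ± 1.83 (SE, edgeR adjusted p = 7.3e-05). With a group at 0 the size of the fitted value depends on the prior count, and on log2 of percent plus 0.01 it was 10.85 ± 1.04 (limma adjusted p = 1.65e-07). It was called with each library left out in turn and in all 10 other settings.

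The Ruminococcus of KO mice under DSS was only in part that of healthy WT mice. The sequence asv24 made up 1.14% ± 0.782 of reads in healthy WT, 0.231% ± 0.166 in WT DSS and 0.709% ± 0.274 in KO DSS libraries, and it was not found in KO mice before DSS. Its interaction passed too (log2 13.76 ± 1.76 SE, edgeR adjusted p = 0.000575). A second sequence, asv36, held 0.778%, 0.919%, 1.53% and 2.03% of the KO DSS libraries and was absent from the other 12. A further one, asv112, showed the same presence at 0.292% ± 0.119. These last sequences were picked after their values had been seen.

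Unclassified Oscillospiraceae, the sum of 41 ASVs of a family of strict anaerobes without a genus name, was the largest of the 3 under DSS. It took 1.02%, 2.42%, 1.61% and 2.53% in healthy WT, 1.19%, 0.647%, 0.941% and 1.03% in healthy KO, and 1.98%, 0.439%, 0.461% and 0.690% in WT DSS libraries. In KO DSS libraries it took 3.15%, 2.85%, 6.08% and 5.17%, above all other libraries. It rose in KO mice (log2 2.13, edgeR adjusted p = 0.00146) and in WT mice had a log2 change of -0.73 (adjusted p = 0.204). The log2 interaction was 2.86 ± 0.62 (SE, edgeR adjusted p = 0.00958). It was lost without KO healthy replicate 1 (2.55, edgeR adjusted p = 0.0883) or 3 (2.62, edgeR adjusted p = 0.0939).

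A single sequence, asv19, carried 66.9% of these reads in KO DSS libraries. It held 2.39%, 1.77%, 3.89% and 3.42% there, had 3 reads in 1 WT DSS library and none in healthy mice. Without it the label went from 1.89% ± 0.715 to 0.891% ± 0.734 in WT mice and from 0.950% ± 0.226 to 1.44% ± 0.645 in KO mice. The remaining 40 ASVs were thus lower on average in WT DSS than in WT healthy libraries. In KO DSS libraries they were higher on average than in KO healthy ones. The DSS groups overlapped, as did the healthy and DSS libraries of each genotype. The interaction without asv19 was not tested.

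Monoglobus, a genus known for degrading pectin, was nearly absent from healthy KO mice alone. It held 0.236%, 0.191%, 0.449% and 0.197% in healthy WT and 0.0827%, 0.109%, 0.579% and 0.316% in WT DSS libraries. Only 1 healthy KO library had any, at 0.0071%, and the KO DSS libraries held 0.268%, 0.307%, 0.018% and 0.428%. The healthy genotypes did not overlap and the DSS genotypes did. Its log2 interaction was 6.13 ± 1.64 (SE, edgeR adjusted p = 0.0419), made by a rise in KO mice (log2 6.87, adjusted p = 0.00123) beside 0.74 in WT mice (adjusted p = 0.63). The call was lost without 11 of the 16 libraries in turn, namely WT healthy 0, 2 and 3, KO healthy 1 and 3, and replicates 0, 1 and 3 of both DSS groups. The log2 values over all 16 were 5.28 to 9.54 (edgeR adjusted p 0.00504 to 0.0939).

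**Figure D3:**
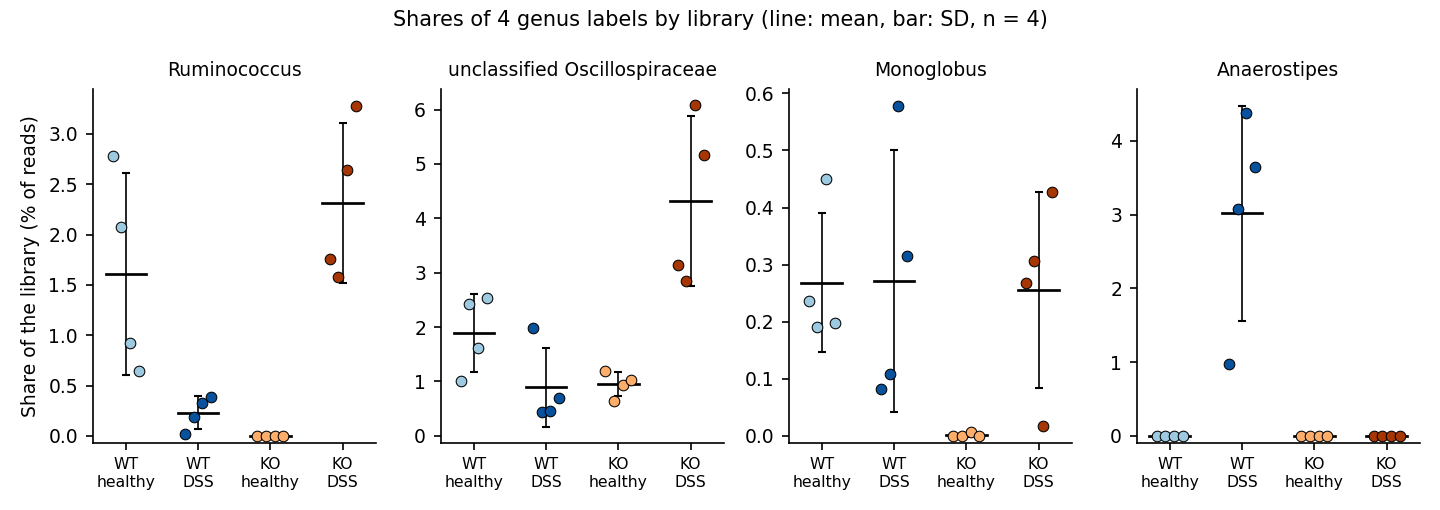
Share of reads (percent of the library) of Ruminococcus, unclassified Oscillospiraceae, Monoglobus and Anaerostipes in each of 16 libraries, with the group mean (line) and SD (bar, n = 4). Ruminococcus is at 0 in all 4 healthy KO libraries and at 1.58% to 3.28% in KO DSS libraries, and Anaerostipes has reads in WT DSS libraries only.

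The 2 genera nearest to the threshold without passing edgeR had values below 0. Clostridia_vadinBB60_group, Clostridia known from sequence only, had a log2 interaction of -2.34 ± 0.72 (SE, edgeR adjusted p = 0.0828). It rose in WT mice from 0.606% ± 0.359 to 1.91% ± 0.432 (log2 2.24, edgeR adjusted p = 0.00656) and stood at 1.05% ± 0.625 and 0.989% ± 0.222 in KO mice (log2 -0.10, adjusted p = 0.925). It passed with TMMwsp factors, DESeq2, centred log ratios and a minimum of 20 reads. Marvinbryantia, which can make acetate, had -6.17 ± 1.95 (edgeR adjusted p = 0.103), at 0.124% ± 0.0801 and 0.164% ± 0.058 in healthy WT and KO libraries. Under DSS it held 0.0068% ± 0.0078 in WT libraries and had no read in KO libraries. Its interaction passed with TMMwsp factors, DESeq2 and a minimum of 20 reads. Its share was lower under DSS than in healthy mice in both genotypes (edgeR adjusted p = 0.0362 in WT and 0.000631 in KO mice).

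The Eubacterium coprostanoligenes group, named for a species that reduces cholesterol, rose in WT mice from 0.172% ± 0.174 to 2.01% ± 1.31 (log2 3.96, edgeR adjusted p = 0.0362). In KO mice it stood at 0.0434% ± 0.0535 and 0.104% ± 0.116 (log2 0.91, adjusted p = 0.544), and the interaction of -3.05 ± 1.62 did not pass (edgeR adjusted p = 0.261). Under DSS the WT libraries, at 0.341% to 3.23%, lay above all KO libraries, at 0.0144% to 0.271%. Blautia (-2.38 ± 1.05), Turicibacter (-2.29 ± 1), Intestinimonas (-4.02 ± 1.88), Lactobacillus (-1.97 ± 0.94), Clostridium_sensu_stricto_1 (-3.00 ± 1.56) and Anaeroplasma (-1.54 ± 0.81) also had values below 0. Their edgeR adjusted p lay between 0.242 and 0.261. Turicibacter and Clostridium_sensu_stricto_1 passed without KO healthy replicate 0, which was the lowest of its group in both.

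Of the genera named by rank of p with values above 0 that did not pass edgeR, 2 passed on log shares. Ruminococcaceae Incertae Sedis went from 0.301% ± 0.0953 to 0.203% ± 0.155 in WT mice and from 0.118% ± 0.0265 to 0.572% ± 0.487 in KO mice (log2 2.29 ± 1.06 SE, edgeR adjusted p = 0.242). On log shares it was called (2.6 ± 0.79, limma adjusted p = 0.0335). Unclassified Lachnospiraceae fell from healthy to DSS in WT mice, from 6.10% ± 1.52 to 1.40% ± 0.407 (log2 -1.58, edgeR adjusted p = 0.00716). It stood at 4.08% ± 0.914 and 3.01% ± 1.13 in KO mice (log2 -0.47, adjusted p = 0.329). Its interaction of 1.10 ± 0.53 did not pass edgeR (adjusted p = 0.242) and did pass on log shares (1.63 ± 0.43, limma adjusted p = 0.0384). Acetatifactor (4.11), UCG-009 of Butyricicoccaceae (2.48), GCA-900066575 (2.54) and the label Erysipelotrichaceae (3.66) were not past either test. The Eubacterium xylanophilum group, at 7.82 (edgeR adjusted p = 0.242), rested on KO DSS replicate 0, the only DSS library with reads, and was -0.995 without it. DESeq2 called it at 21.27 (adjusted p = 6.06e-16).

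The 5 most abundant genera did not pass. Muribaculaceae went from 23.2% ± 1.68 to 15.6% ± 1.32 in WT mice and from 36.3% ± 4.19 to 21.4% ± 2.16 in KO mice, with KO above WT in both states and no overlap. Its log2 interaction was -0.77 ± 0.41 (edgeR adjusted p = 0.261), -0.19 on log shares, and it passed with TMMwsp factors, with a minimum of 20 reads or without WT DSS replicate 0. Parabacteroides, Bacteroidales that ferment sugars, went from 15.9% ± 2.58 to 26.1% ± 4.43 in WT mice and from 7.35% ± 2.85 to 18% ± 4.18 in KO mice (0.12 ± 0.59, edgeR adjusted p = 1). Clostridia_UCG-014 went from 15.3% ± 4.65 to 19.1% ± 3.36 in WT mice and from 5.35% ± 1.46 to 15% ± 3.8 in KO mice (0.70 ± 0.63, edgeR adjusted p = 0.525). The Lachnospiraceae NK4A136 group had 0.41 ± 0.56 (edgeR adjusted p = 0.691). The sign of these last 3 turned with centred log ratios.

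Escherichia-Shigella, a genus of Enterobacteriaceae that can respire oxygen, rose under DSS in both genotypes. The share of its family went from 0.126% ± 0.0739 to 4.85% ± 1.32 in WT mice and from 0.188% ± 0.138 to 6.27% ± 4.53 in KO mice. The log2 changes of the genus were 5.76 and 5.13 (edgeR adjusted p = 0.000102 and 0.000187), and the interaction was -0.63 ± 0.94 (edgeR adjusted p = 0.706). In all, 8 genera were called for DSS in both genotypes, none with opposite signs. Over the 66 genera the log-share change had the same sign in WT and KO mice in 43, with a correlation across genera of 0.497 between changes that share no library. The genotypes were closer under DSS than in healthy mice for 34 of the 66, for 13 of 26 families and for 176 of 308 ASVs, which are not independent of one another. Taxa with no read in either DSS group, such as asv56, were bound to count as closer. Those with no read in either healthy group, such as asv18, were bound to count the other way. These counts were thus partly fixed in advance and give no direction.

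**Figure D4:**
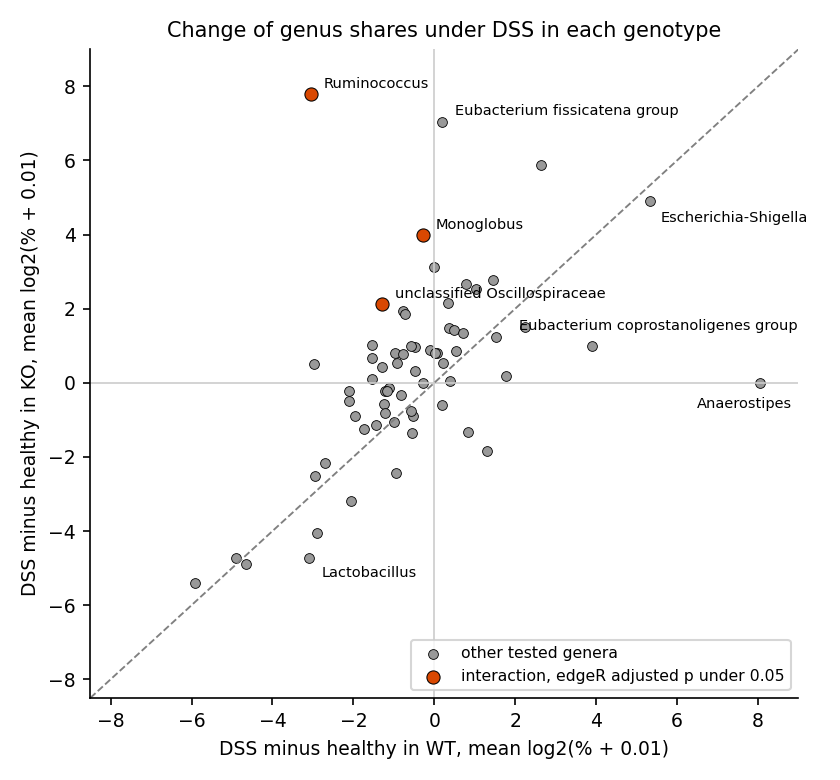
Change of each tested genus from healthy to DSS, as the difference of mean log2(percent + 0.01), in WT mice (horizontal) and KO mice (vertical). Each point is 1 of 66 genera, the dashed line marks equal change, and the 3 genera called by edgeR lie above it, with Ruminococcus at -3.05 in WT and 7.80 in KO mice.

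At family rank 3 of 26 families passed (11.5%), and Monoglobaceae and Ruminococcaceae were above 0 and Muribaculaceae below. The Monoglobaceae value was 6.35 ± 1.45 (SE, edgeR adjusted p = 0.00746), from the single genus Monoglobus. It did not pass on log shares with a pseudocount of 0.1 (1.75, limma adjusted p = 0.0929) or in edgeR without a filter on low counts (adjusted p = 0.9998). Ruminococcaceae, with many degraders of plant polymers, held 4.55%, 4.81%, 3.15% and 2.75% in healthy WT and 0.878%, 0.773%, 0.760% and 1.65% in healthy KO libraries. Under DSS they held 2.71%, 3.28%, 3.76% and 3.42% in WT and 5.01%, 4.33%, 8.69% and 7.35% in KO libraries. WT libraries were all higher than KO libraries when healthy and all lower under DSS. Their interaction was 2.28 ± 0.59 (edgeR adjusted p = 0.0124), from a rise in KO mice (log2 2.25, adjusted p = 0.000202) beside -0.03 in WT mice (adjusted p = 0.943).

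Oscillospiraceae as a family had 1.44 ± 0.59 (edgeR adjusted p = 0.103), going from 4.31% ± 1.36 to 3.01% ± 1.54 in WT mice and from 2.45% ± 0.369 to 7.08% ± 2.46 in KO mice. It was called on log shares (2.05 ± 0.51, limma adjusted p = 0.0174), where 3 of 26 families (11.5%) passed with Monoglobaceae and Ruminococcaceae. Muribaculaceae had -0.84 ± 0.26 (edgeR adjusted p = 0.0380) and did not pass in any of 11 other settings, for example at -0.19 with total counts as the scale, nor without 8 of 16 libraries in turn. The count of families was 6 without KO healthy replicate 0 and 1 without WT healthy replicate 1, WT DSS replicate 0 or 3, or KO DSS replicate 2. Ruminococcaceae did not pass without each of the last 4 (1.86 to 1.98, edgeR adjusted p 0.0501 to 0.0944). With a minimum of 20 reads that family did not pass either (1.985, edgeR adjusted p = 0.0809).

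Of the other families of at least 1%, none passed edgeR. Clostridia_vadinBB60_group had -2.41 ± 0.83 (edgeR adjusted p = 0.0538), Lactobacillaceae -1.95 ± 0.82 (0.103), Erysipelotrichaceae -2 ± 0.84 (0.103) the Eubacterium coprostanoligenes group -2.91 ± 1.54 (0.209) and Acholeplasmataceae -1.59 ± 0.92 (0.257). Lachnospiraceae, at 0.46 ± 0.39 (edgeR adjusted p = 0.513), went from 17.4% ± 5.52 to 9.19% ± 1.61 in WT mice and from 15.1% ± 3.01 to 17.7% ± 8.74 in KO mice. Its value was -0.028 without KO DSS replicate 1, where it reached 30.7%. Enterobacteriaceae had -0.89 ± 0.84 (0.526), Deferribacteraceae, which live in the mucus, 0.74 ± 1.15 (0.721), and Tannerellaceae -0.03 ± 0.38 (0.935). Clostridia_UCG-014, at 0.56 ± 0.42 (0.436), and Erysipelatoclostridiaceae, at -0.32 ± 1.11 (0.841), were the remaining ones.

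Single sequences gave 4 calls among 308 tested ASVs (1.3%), 1 above 0 (0.325%) and 3 below (0.974%), and 53 had an unadjusted p under 0.05. All 4 passed in every setting and with every library left out in turn. The call above 0 was the Ruminococcus sequence asv24. Those below were asv4 and asv14, both assigned to Lactobacillus murinus, and asv27 of the NK4A136 group. A further 14 ASVs just missed the threshold at an edgeR adjusted p of 0.0533, so the count depends on the setting: it was 7 without KO healthy replicate 2 or WT DSS replicate 3, 42 with DESeq2 and 55 on log shares (17.9%, with 38 above 0 or 12.3%, and 17 below or 5.52%).

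Within Lactobacillus, the species that made up most reads under DSS differed between the genotypes. The 2 murinus sequences had a read ratio of asv4 to asv14 between 4.14 and 6.20 over the 12 libraries with both, so they count as 1 signal. L. murinus is a common resident of the rodent gut, as is L. johnsonii. In healthy mice asv4 held 5.94%, 1.86%, 10.1% and 2.52% of reads in WT and 19.3%, 12.4%, 14.7% and 4.68% in KO libraries. Under DSS it held 1.65%, 0.647%, 1.36% and 0.373% in WT and 0.0142%, 0%, 0% and 0% in KO libraries. It was 5.06-fold lower with DSS in WT mice (edgeR adjusted p = 0.169) and, with 10 reads left in the 4 libraries, fell in KO mice (log2 -11.75, edgeR adjusted p = 0.000235). The interaction was -9.64 ± 1.71 (SE, edgeR adjusted p = 0.00343) for asv4 and -11.83 ± 1.51 (edgeR adjusted p = 0.000575) for asv14.

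L. johnsonii, asv8, had a value of the opposite sign. It went from 4.28% ± 1.5 to 0.115% ± 0.156 in WT mice and from 6.08% ± 3.82 to 1.1% ± 0.959 in KO mice. It was lower under DSS than in healthy mice in both genotypes (log2 -5.15 in WT, edgeR adjusted p = 0.00302, and -2.49 in KO, adjusted p = 0.0496). Its interaction of 2.66 ± 1.25 did not pass (edgeR adjusted p = 0.286), and it was picked after its values had been seen. As a share of Lactobacillus reads, which does not depend on the scaling, L. murinus made up 85.4%, 95.2%, 97.9% and 92.3% in WT DSS libraries. In KO DSS libraries it made up 0.952%, 0%, 0% and 0%, of 1050, 1337, 209 and 167 Lactobacillus reads. In healthy mice the ranges overlapped, with 39.6% to 63.6% in WT and 42.6% to 96.5% in KO libraries. The genus as a whole, by contrast, stood at 1.34% ± 0.871 in WT DSS and 1.11% ± 0.961 in KO DSS libraries.

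**Figure D5:**
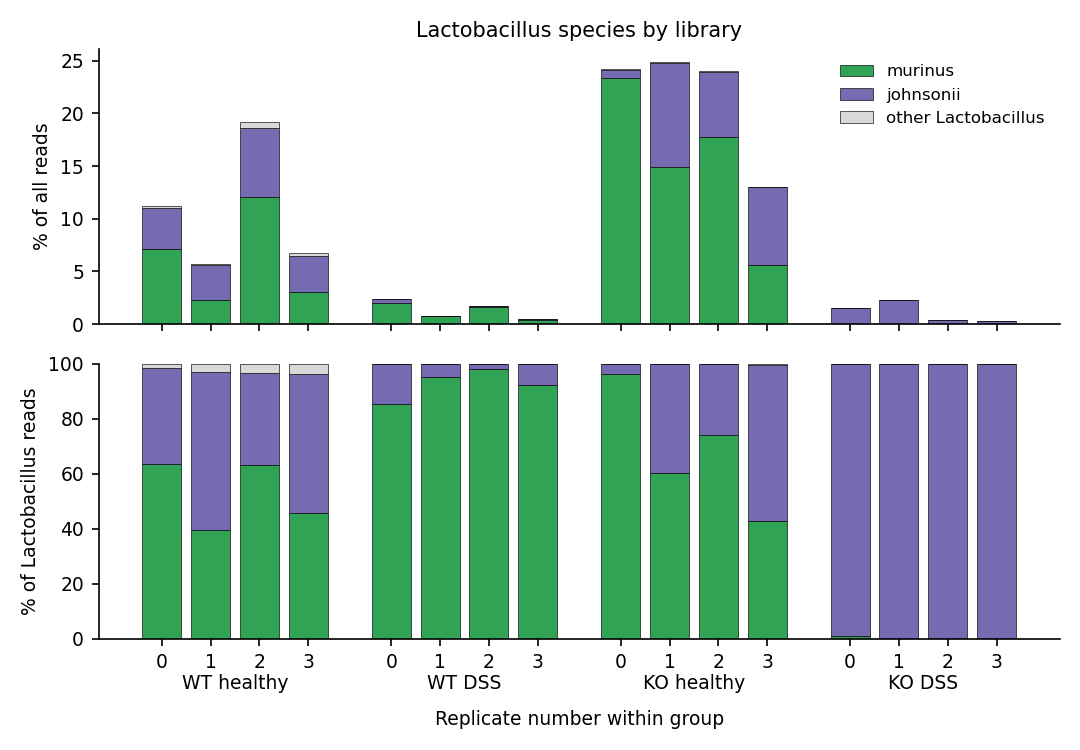
Lactobacillus reads in each library by assigned species, as percent of all reads (top) and percent of Lactobacillus reads (bottom), with replicates 0 to 3 of each group. Under DSS L. murinus makes up 85.4% to 97.9% of Lactobacillus in WT libraries and at most 0.952% in KO libraries.

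Sequences of the NK4A136 group, Lachnospiraceae known mostly from sequence, had interactions of both signs within 1 genus label. The ASV asv27 held 2.84%, 2.14%, 0.0266% and 2.85% in healthy KO and no read in any KO DSS library, at least 397-fold lower. In WT libraries it held 0.0155% to 0.0678% when healthy and 0.0469% to 0.681% under DSS. Its interaction was -16.20 ± 2.13 (SE, edgeR adjusted p = 5.8e-04). The sequences asv15 and asv63 of the same group just missed the threshold with values above 0, at 9.2 ± 2.25 and 7.78 ± 1.96 (edgeR adjusted p = 0.0533 each). Both had no read in WT DSS libraries. In KO DSS libraries asv15 held 1.59%, 0.542%, 1.52% and 0.488%, and asv63 0.130%, 0.0823%, 0.0596% and 0%.

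Clostridia_UCG-014 also held sequences of both signs. The ASV asv20, at 11.82 ± 2.90 (edgeR adjusted p = 0.0533), had no read in healthy KO libraries and 0.219% to 5.22% in healthy WT libraries, and under DSS 0.295% to 0.473% in WT and 0% to 0.665% in KO libraries. The ASV asv41, at -11.95 ± 2.95 (edgeR adjusted p = 0.0533), held 1.63%, 1.41%, 0.893% and 0.281% in WT DSS libraries. Elsewhere it had reads in only 1 healthy KO library (0.016%) and 1 KO DSS library (0.0307%). The genus label sums over such sequences.

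Of 139 ASVs with reads in at least 3 libraries of both healthy groups, 22 had no read in any DSS library, and 19 of these (86.4%) were Lachnospiraceae, to which 56 of the 139 (40.3%) belonged. They had held 3.18% ± 1.26 in healthy WT and 2.20% ± 0.391 in healthy KO libraries. Only 4 were gone from WT DSS libraries and present in at least 3 KO DSS libraries, among them asv15 and asv63. Another 4 were gone from KO DSS libraries alone, among them asv14 and asv27. Among arrivals, no ASV without reads in healthy mice was present in at least 3 libraries of both DSS groups. At this minimum 21 ASVs arrived in KO mice, 17 of them with no read in WT DSS libraries. In WT mice 8 arrived, 5 of them with no read in KO DSS libraries. With a minimum of 2 libraries, 4 ASVs arrived in both genotypes, of 34 in KO and 20 in WT mice, and with a minimum of 1 library 13, of 96 and 771. Most of the 771 came from WT DSS replicate 1. Without that library the WT counts fell from 8, 20 and 771 to 5, 16 and 60 at a minimum of 3, 2 and 1 libraries. Of these, 0, 2 and 13 were shared with KO mice.

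The 17 arrivals seen in KO mice only held 10.5% of the reads of KO DSS libraries on average, between 3.70% and 25.0%. Of them, 8 (47.1%) were Lachnospiraceae, beside 50 (31.4%) of the 159 ASVs with reads in at least 3 KO DSS libraries. Most of the highest value came from asv12 of the NK4A136 group, with 20.7% in KO DSS replicate 1, and 0%, 0.211% and 0.0909% in replicates 0, 2 and 3. The others included asv37 of the Eubacterium siraeum group (0.0822%, 0.261%, 1.43% and 3.31%). Outside these 17, the Eubacterium fissicatena group, through asv32, held 2.88%, 0.989%, 1.03% and 1.02% in KO DSS libraries, against 5 reads in 1 WT DSS library and none in healthy mice.

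The 5 arrivals seen in WT mice only held 5.34% of the reads of WT DSS libraries on average, between 1.32% and 7.61%. Anaerostipes, a butyrate producer, consisted of asv18 and held 0.979%, 3.08%, 4.38% and 3.64% in WT DSS libraries and no read elsewhere, at least 611-fold above KO DSS libraries. The coprostanoligenes sequence asv28 held 0.276%, 1.61%, 2.81% and 3.20% there and no read elsewhere. For sequences absent from both healthy groups the edgeR interaction has no usable error and gave no call. Anaerostipes and the fissicatena group were tested only because of the group in which they are high, so their shares stand as a description. Why arrivals differed between genotypes was not tested, and a cage shared by the mice of 1 genotype cannot be told apart from genotype here.

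Lists of genera and families with a known role were set beside all ASVs as a description, since their members were chosen with results known. Over all 308 tested ASVs the median interaction on log shares was 0.60, and limma called 12.3% above 0 and 5.52% below. Of the 55 ASVs called, 18 had reached the read filter in libraries of a single group alone. Plant fibre and pectin degraders had 4 tested ASVs, namely asv24, asv36, asv112 and a Monoglobus sequence, which were described above. Their summed share went from 1.88% ± 0.963 to 0.503% ± 0.370 in WT mice and from 0.0018% ± 0.0036 to 2.57% ± 0.831 in KO mice. Ruminococcaceae and Oscillospiraceae together (78 tested) had a median of 1.01, with 1 call by edgeR. On log shares 14 (17.9%) were above 0 and none below, and 7 of the 14 had reached the read filter through a single group. Their sum went from 8.13% ± 1.59 to 6.31% ± 1.19 in WT mice and from 3.47% ± 0.733 to 13.4% ± 4.41 in KO mice.

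Butyrate producers (10 tested) had a median of -0.45, with no call by edgeR. The 1 call below 0 on log shares was asv18, which has reads in WT DSS libraries only. They summed to 2.46%, 2.90%, 3.93% and 0.782% in healthy WT, 1.29%, 1.53%, 1.31% and 3.55% in healthy KO and 1.02%, 3.21%, 4.48% and 4.11% in WT DSS libraries. In KO DSS libraries they summed to 0.254%, 0.0823%, 0% and 0.112%, below every other library. Most of the WT DSS sum was Anaerostipes (asv18), at 3.02% ± 1.46. In WT DSS replicate 0 it held 0.979% of reads, out of the 1.02%. Without asv18 that library would not lie above the KO DSS libraries, so the gap between the DSS groups rests on this sequence. Lactic acid bacteria (4 tested) had a median of -1.47, with the 2 murinus sequences below 0 by edgeR and on log shares. A sequence of L. intestinalis, asv99, was above 0 on log shares, and it had reads in healthy mice only, at 0.295% ± 0.211 in WT and 0.0321% ± 0.0101 in KO libraries. With no read under DSS in either genotype, its value only restates the healthy difference with the sign turned. It was not higher in KO mice under DSS.

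Lachnospiraceae (122 tested) had a median of 0.32, with 1 call below 0 by edgeR, and 15 above (12.3%) and 8 below (6.56%) on log shares, near the shares over all ASVs. Of these calls on log shares, 2 above and 2 below had reached the read filter in a single group alone. The sequence-only Clostridia orders (60 tested) had -0.37, with no call by edgeR, and 4 above (6.67%) and 5 below (8.33%) on log shares. A single group alone had carried 2 of those above and 1 of those below past the filter. RF39 and Acholeplasmatales (4 tested) had -0.81 with 1 below on log shares, and Erysipelotrichales (9 tested) -0.24 with 1 above. The call below was asv170, which has reads in WT DSS libraries only and was bound to differ on this scale. Enterobacterales and Enterococcus (3 tested, median -0.36), Bacteroidales (4 tested, median 0.046) and mucus dwellers (1 tested, 1.82) had none by either test, and sulfate reducers had no ASV in the table.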

How the data were processed

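Stool DNA of 16 libraries was amplified over variable regions V3 and V4 and read on a MiSeq, per the labels. The authors deposited read counts per ASV, whole numbers not scaled to equal depth, and a taxonomy table with the confidence of each assignment as a fraction, 0.70 to 1, which was not used as a filter. The submitters' processing notes name cutadapt; the denoiser, classifier and database are not given in the sources used here.

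Counts were summed by the Genus and Family columns, and the 387 ASVs without a genus (6.76% of reads) went under their next named rank. Features reaching 5 reads in 4 or more libraries entered edgeR 4.0.16 (R 4.3.3, TMM factors, quasi-likelihood test with robust dispersion), as 1 fit over the 4 groups, called at a Benjamini-Hochberg adjusted p under 0.05. SE are the log2 value over the square root of F. limma 3.58.1 on log2(percent + 0.01), the log shares, and DESeq2 1.42.0 were alternatives. Ratios "at least" use 3 reads per library for a group at 0 and cover counting error only. Bray-Curtis distances were tested exactly over 4900 relabellings. Two-sided p-values are 2 times the smaller tail, a choice made after the p-values from absolute values (0.324 and 0.127 for the genotype distance and the step) had been seen. The smallest p possible was 0.00163 for the genotype distance and 0.000408 for the other 2 results. Distances and figures came from Python 3.11.15 with matplotlib 3.10.9, numpy 2.4.6 and pandas 2.3.3. The code was tested on simulated data.

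Members, lists and naming rules were chosen with earlier results of these data known. Named were genera past the threshold, the next by p until 20, the 5 most abundant, families past the threshold or of at least 1% in a group, and the 8 ASVs with the smallest p.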

Additional observations from a re-analysis of the deposited data

Results flagged for a closer look

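Flagged were the taxa called above by the test of the interaction, and the distance result. The test of the latter is not one of the interaction alone, as stated above. The log2 interactions were 15.95 for Ruminococcus, 6.13 for Monoglobus and 2.86 for unclassified Oscillospiraceae, 6.35 for Monoglobaceae, 2.28 for Ruminococcaceae and -0.84 for Muribaculaceae as a family. They were 13.76 for asv24, -9.64 for asv4, -11.83 for asv14 and -16.2 for asv27. The interaction share of the distance variation was 12.1%.

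Within groups, 1 library stood far from the other 3 in 27 of 174 group values tested by Dixon's criterion. The chance rate of about 1 in 20 holds for independent, normally spread values and is no yardstick here. Some genera and families hold the same reads, and a group with reads in 1 library alone meets the criterion by construction. WT DSS replicate 0 did so most often, with 1.98% unclassified Oscillospiraceae, 3.99% Anaeroplasma and Acholeplasmataceae, 0.165% GCA-900066575, 5.95% NK4A136 group, 8.94% Deferribacteraceae and 0.681% asv27. KO DSS replicate 0 stood apart with 0.240% of the xylanophilum group, 0.0142% of asv4 and 0.665% of asv20. KO DSS replicate 1 held 26.2% of the NK4A136 group and 30.7% Lachnospiraceae, and KO DSS replicate 2 held 0.0307% of asv41.

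In healthy mice, KO replicate 0 held 0.157% Ruminococcaceae Incertae Sedis and 0.123% of the coprostanoligenes group, both as genus and as family. KO replicate 1 held 0.0098% of the label Erysipelotrichaceae. KO replicate 2 held 0.0071% Monoglobus (and Monoglobaceae) and 0.016% of asv41. KO replicate 3 held 13.1% Lactobacillus (and Lactobacillaceae), 1.65% Ruminococcaceae and 0.391% of asv63. WT replicate 0 held 0.159% Ruminococcaceae Incertae Sedis and 2.29% of asv24, and WT replicate 2 held 1.81% of the xylanophilum group.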

How the results depend on the processing

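The number of genera called was 3. It was 6 with TMMwsp factors, 10 with DESeq2, 9 with limma on log shares, 8 with limma on centred log ratios, 6 with a minimum of 20 reads, and 1 to 5 with a library left out. The 4 ASV calls became 8 with total counts, 42 with DESeq2, 55 with limma on log shares, 46 with centred log ratios, 25 without a filter, 17 with a minimum of 20 reads, and 4 to 7 with a library left out. The 3 family calls became 1 without a filter and 1 with a minimum of 20 reads, and 1 to 6 with a library left out. With the replicate block 2 genera, 5 ASVs and 3 families were called. Monoglobus was lost (7.18, edgeR adjusted p = 0.145), as was Muribaculaceae as a family (-0.85, edgeR adjusted p = 0.134), Lactobacillaceae was gained (-2.32, edgeR adjusted p = 0.0275), and the KO step minus the WT step was 0.1 over same-numbered libraries (exact permutation p = 0.0571 over 70 relabellings). Same-numbered libraries deviated from their group means with correlations of -0.144 to 0.0721, so the numbers were not taken to pair samples.

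The change of the genotype distance was reversed with Jaccard (0.151), Aitchison (11.4) and square-root distances (0.111), with the same without ASVs of 1 library (0.0763, 2.73 and 0.0475), and ranged from -0.0434 to 0.0038 with a library left out. None passed. For Jaccard, Aitchison and square-root distances on all ASVs, the means over the relabellings were 0.150, 9.95 and 0.108, near the observed values. The difference in step was -0.0152 with Jaccard and -2.41 with Aitchison distances. Without ASVs of 1 library it passed, unadjusted, with Jaccard (0.0461), Aitchison (7.30) and square-root distances (0.0737). With Bray-Curtis distances it did not (0.123, exact permutation p = 0.0935). With a library left out it was 0.0959 to 0.128.

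Of single taxa, the sign turned for Parabacteroides with TMMwsp (-0.80), RLE factors (-0.089), DESeq2 (-0.13), centred log ratios (-0.61) and 20 reads (-0.57), and with a library left out it ran from -0.85 to 0.38. Tannerellaceae turned with RLE factors (0.052), total counts (0.57), log shares (0.63, and 0.62 with a pseudocount of 0.1), no filter (0.33) and without ASVs of 1 library (0.057), with a left-out range of -0.41 to 0.084. Clostridia_UCG-014 as a genus turned with TMMwsp (-0.25) and centred log ratios (-0.11), range -0.40 to 0.998. The NK4A136 group turned with centred log ratios (-0.46), range -0.0094 to 0.62 (-0.00092 without WT healthy replicate 3). Erysipelatoclostridiaceae turned with total counts (0.25), Lachnospiraceae without 1 library (-0.028 to 0.71) and the xylanophilum group without 1 library (-0.995 to 8.25). None of these passed with the main settings, and of these only the xylanophilum group passed elsewhere, with DESeq2 (21.27). The cause was not tested. Counts of few reads limit rare taxa: 3 reads were 0.00425% to 0.00609% of a library.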
